A study of Mus musculus with 12 samples.

Results

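The data described here are the comparison, under lipopolysaccharide (LPS), of mouse bone marrow-derived macrophages labelled knockout (KO) for Nlrc3 with wild-type (WT) ones. The members were the samples whose titles give LPS and a genotype: 3 libraries labelled KO LPS and 3 WT LPS libraries, 6 of 12 in the series, with every gene of the count table considered. All mice carried Nlrc3 alleles flanked by loxP sites. The labelled KO also carried Cre recombinase under the LysM promoter, which acts in myeloid cells, and the WT had no Cre, so neither an unfloxed mouse nor Cre alone served as a control. Cells were grown from femur and tibia marrow with macrophage colony-stimulating factor and exposed to LPS for 12 h, and the series also holds labelled KO and WT cells kept in medium. Age, sex and whether replicates came from separate mice are not given in the labels, so every p-value here speaks only of differences beyond the variation among these libraries, some of which may be technical.

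LPS, a component of the outer membrane of Gram-negative bacteria, is sensed by Toll-like receptor 4. In macrophages the receptor signals through adaptors to NF-kappaB and MAP kinases, which switch on cytokine and chemokine genes, and through a second adaptor branch to type I interferon, which acts back on the cells and switches on interferon-stimulated genes through STAT and IRF factors. Genes of the resting state, such as those for lipid synthesis, lysosomal function and lineage receptors, are commonly turned down over the same hours. Nlrc3, a NOD-like receptor protein, is described as a brake on inflammatory signalling.

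Under LPS the targeted gene went against the label, while in medium labelled KO was below WT in the fit. Nlrc3 (chromosome 16, 3945007 to 3976632, minus strand, mm10) had 15.6, 8.29 and 6.04 counts, scaled to 1000000 per library (CPM), in the 3 labelled KO LPS libraries and 0.796, 4.39 and 1.399 CPM in the 3 WT LPS libraries. No labelled KO LPS library was below a WT LPS library. The log2 fold, labelled KO LPS over WT LPS, was 1.76 ± 0.52 (SE; edgeR quasi-likelihood test, Benjamini-Hochberg adjusted p = 0.030). It no longer passed when labelled KO LPS 1 or 2 or WT LPS 1 or 3 was left out. For that reason every direction given here is a direction between libraries as they are labelled. Lyz2, the lysozyme gene into which LysM-Cre is inserted, had 15279, 25972 and 13343 CPM in labelled KO LPS and 13942, 9125 and 7077 CPM in WT LPS, and its log2 fold of 0.31 ± 0.42 did not pass.

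The 6 libraries held 15069991 to 20960505 counts. On the first principal component of all 12 libraries, which held 56.8% of the variance, labelled KO LPS lay at −48.9, −100.3 and −95.9 and WT LPS at 86.6, 20.5 and 84.8. The 3 labelled KO LPS libraries lay on the side of the WT medium libraries, and the 3 WT LPS libraries on the side of the labelled KO medium libraries. Across the tested genes, the log2 level of labelled KO LPS 1 had a correlation of 0.981 with WT medium 2, against 0.921 and 0.906 with labelled KO LPS 2 and 3. Labelled KO LPS 1 and WT LPS 2 each stood apart from the rest of their group, and values are also given without them where a count turned on them. They were also the libraries whose sex-linked transcripts differed from the rest of their group. Xist was present in labelled KO LPS 2 and 3 and in WT LPS 2, and Y-linked transcripts in the other 3 libraries, so female and male libraries occurred in both groups.

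**Figure D1:**
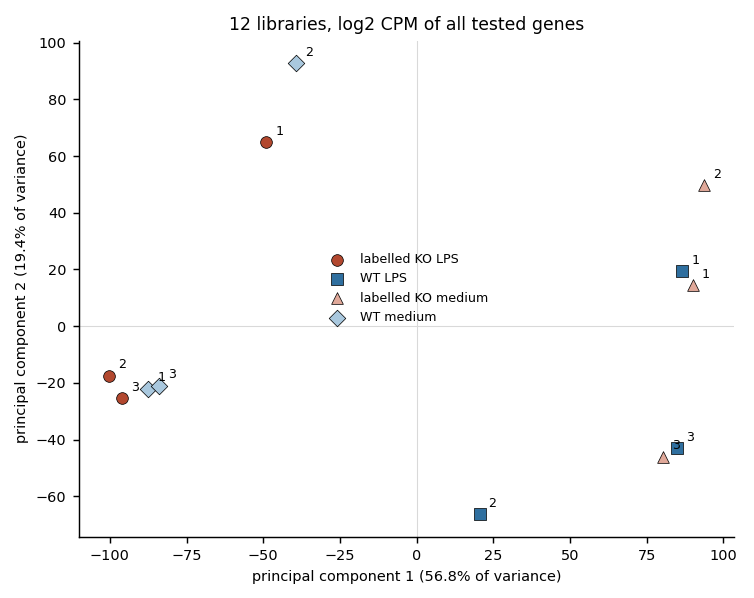
Principal components 1 and 2 of the log2 levels of all tested genes, 1 point a library, with the replicate number beside it. Labelled KO LPS (circles, −48.9, −100.3 and −95.9 on component 1) and WT LPS (squares, 86.6, 20.5 and 84.8) lie on opposite sides, each beside the medium group of the other genotype label.

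Of 13773 genes tested, 3324 were called at an adjusted p under 0.05 (24.1%; edgeR quasi-likelihood test, Benjamini-Hochberg adjustment), 1435 higher in labelled KO LPS (10.4%) and 1889 lower (13.7%). A change of more than 2-fold was called for 1080 genes (7.84%), 246 higher (1.79%) and 834 lower (6.06%). Called differences of over 16-fold were mostly falls, 283 against 43 rises. In CPM, scaled by library total alone, the libraries of the groups did not overlap in 6295 genes (45.7%). Among them were 2804 of the called genes, while 520 called genes did overlap. Among protein-coding genes 1363 of 12069 were higher and 1676 lower, and among long intergenic RNAs 21 of 259 were higher and 48 lower. Scaled by library total in place of TMM factors, 4681 genes were called and 74.5% of them were higher, against 43.2% here, and the median log2 fold of all genes was 0.57 against 0.07. Folds are scaled by TMM factors and CPM levels are not, so a gene with a log2 fold near 0 has a somewhat higher CPM in labelled KO LPS. Without labelled KO LPS 2 or 3 or WT LPS 3, 1810, 1982 or 1822 genes were called, and without both labelled KO LPS 1 and WT LPS 2, 4618. With both left out, labelled KO LPS holds only libraries with Xist and WT LPS only libraries with Y-linked transcripts, so label and sex cannot be told apart in 4618 or in any other value without both.

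The 12 largest falls and the 12 largest rises were taken from called genes whose libraries did not overlap in CPM between the groups. Of the 12 largest falls, 8 were in genes of cytokines, growth factors and chemokines. Nos2, the inducible nitric oxide synthase (chromosome 11), had 5.43, 1.42 and 0.689 CPM in labelled KO LPS and 2153, 831 and 2704 CPM in WT LPS, a log2 fold of −10.13 ± 0.98. The interleukin 1 family member Il1a had 3.91, 7.15 and 3.29 CPM in labelled KO LPS, against 1137, 144 and 1641 CPM in WT LPS (−8.28 ± 0.92). Il6, a cytokine of the acute phase, had 1.07, 1.31 and 0.689 CPM against 245, 12.3 and 214 CPM in WT LPS (−7.88 ± 1.19). In each of these genes WT LPS 2 was the lowest WT library. That it lay above every labelled KO LPS library was a condition of the choice. Cxcl10, a chemokine for activated T cells, had 17.5, 19.6 and 22.1 CPM in labelled KO LPS and 3852, 1070.3 and 3363 CPM in WT LPS (−7.72 ± 0.69). Csf3, the granulocyte growth factor, had 0.379, 0.0546 and 0.159 CPM in labelled KO LPS and 34.9, 1.91 and 83.4 CPM in WT LPS. Il19, of the interleukin 10 family, had 1.01, 0.0546 and 0.0530 CPM in labelled KO LPS and 158, 4.15 and 189 CPM in WT LPS. The transcript U90926 had 4.80, 0.109 and 0.159 CPM in labelled KO LPS and 651, 126 and 348 CPM in WT LPS. Its spread covered more than an order of magnitude in labelled KO LPS. The remaining 5 had 1 or 2 reads in all 3 labelled KO LPS libraries together, so only levels are given. The interleukin 1 family members Il1f6 and Il33 reached 21.3, 3.96 and 21.6 CPM and 11.3, 0.573 and 10.8 CPM in WT LPS 1 to 3. The interleukin 23 receptor Il23r stood at 8.10, 14.7 and 7.91 CPM in WT LPS and Fam3b, a cytokine-like secreted protein, at 5.37, 11.5 and 5.35 CPM. Shisa3 stood at 12.1, 0.859 and 11.7 CPM there. Among these 12, WT LPS 2 was the lowest WT library in 10, Il23r and Fam3b being the exceptions, in which it was the highest. Adjusted p of the 12 lay between 2.2e-05 for Il23r and 0.0057 for U90926 (edgeR quasi-likelihood test, Benjamini-Hochberg adjustment), and each call held with any 1 library left out.

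**Figure D2:**
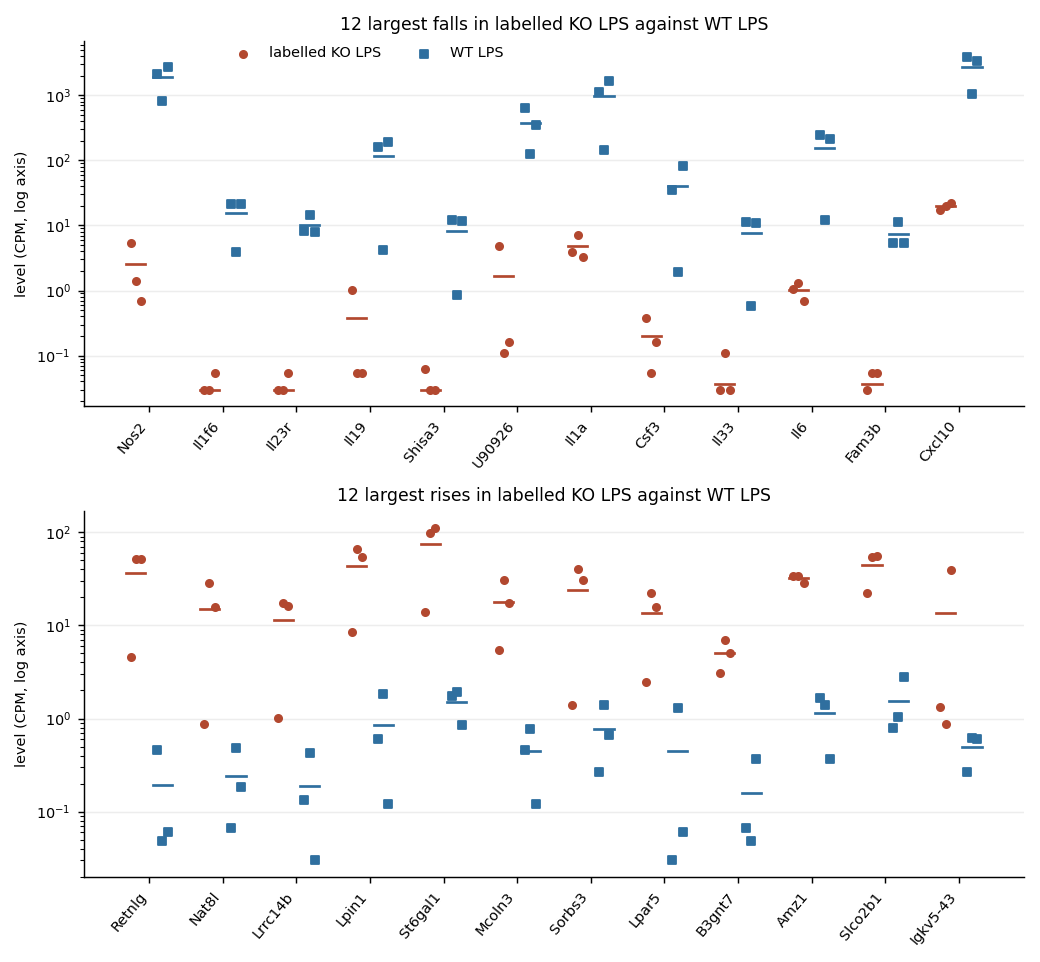
Level in CPM (log axis) of the 12 genes with the largest falls (top) and the 12 with the largest rises (bottom), 1 point a library and a bar for the group mean (n = 3). Labelled KO LPS circles stand left of WT LPS squares; a level of 0, or a mean under 0.03 CPM, is drawn at 0.03 CPM. WT LPS 2 (the middle square) is lowest in 10 of the 12 falls and labelled KO LPS 1 (the left circle) is lowest in 10 of the 12 rises.

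The start sites of some inducible genes are known for short binding motifs of inducible factors. Promoters from 250 bases before to 50 after the annotated start are printed for 3 of the largest falls and, for contrast, for 1 of the largest rises, B3gnt7, which is described further below (RefSeq, GRCm38.p6, each on the strand of its gene). Capitals mark matches on either strand. The interferon response element was searched as GAAANNGAAA and the kappaB motif as GGGANNTTCC. TGANTCA was taken as the AP-1 motif, a site of the factors Fos and Jun. The TATA box, which places the start of transcription at many inducible genes, was searched as TATAAA. For the E-box, bound by helix-loop-helix factors such as Tfeb and the sterol regulators, the letters were CACGTG. The promoters are shown because they place the motifs counted next in genes with the values given above. Cxcl10 (chromosome 5, 92348840 to 92349139, minus strand) has an interferon response element, a kappaB and an AP-1 motif, Il6 (chromosome 5, 30012864 to 30013163, plus strand) a kappaB and an AP-1 motif, Il1a (chromosome 2, 129309923 to 129310222, minus strand) a TATA box and an AP-1 motif, and B3gnt7 (chromosome 1, 86302971 to 86303270, plus strand) an E-box. In each promoter only the motifs named here for it are in capitals. Other promoters searched had fewer motifs or none. Among the largest falls, Il19 had an interferon response element, and Il23r, Shisa3 and U90926 had none of these motifs. Among the largest rises, Lrrc14b had a TATA box, and Retnlg, Lpin1, Mcoln3 and Amz1 had none. The rest of the largest falls and rises were not searched.
Cxcl10: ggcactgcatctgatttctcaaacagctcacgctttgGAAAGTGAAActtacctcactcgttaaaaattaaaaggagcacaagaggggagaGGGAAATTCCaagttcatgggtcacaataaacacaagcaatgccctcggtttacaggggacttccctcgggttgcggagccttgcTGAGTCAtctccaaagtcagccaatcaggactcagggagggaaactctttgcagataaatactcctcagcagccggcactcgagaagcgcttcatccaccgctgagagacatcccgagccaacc
Il6: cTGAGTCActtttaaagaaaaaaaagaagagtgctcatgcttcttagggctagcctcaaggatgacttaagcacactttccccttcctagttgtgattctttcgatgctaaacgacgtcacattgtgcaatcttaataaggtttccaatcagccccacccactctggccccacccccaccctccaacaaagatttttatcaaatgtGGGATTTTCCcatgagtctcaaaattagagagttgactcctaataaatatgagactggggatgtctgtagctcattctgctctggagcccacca
Il1a: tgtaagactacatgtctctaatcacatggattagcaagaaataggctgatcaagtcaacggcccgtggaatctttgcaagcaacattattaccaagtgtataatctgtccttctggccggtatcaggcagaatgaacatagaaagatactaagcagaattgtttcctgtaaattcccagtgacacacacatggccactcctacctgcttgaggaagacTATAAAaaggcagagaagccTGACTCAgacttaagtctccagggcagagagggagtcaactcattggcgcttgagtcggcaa
B3gnt7: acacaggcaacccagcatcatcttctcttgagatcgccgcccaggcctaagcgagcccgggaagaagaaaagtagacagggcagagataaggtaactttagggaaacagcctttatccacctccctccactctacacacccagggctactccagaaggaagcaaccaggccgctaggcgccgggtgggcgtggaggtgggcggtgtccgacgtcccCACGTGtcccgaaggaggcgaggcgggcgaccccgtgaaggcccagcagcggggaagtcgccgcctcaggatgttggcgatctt

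Over all tested genes with exactly 1 promoter in the RefSeq table (7954), the interferon response element occurred in 3.56% of promoters. It occurred in 9.04% of the 1095 promoters of genes lower in labelled KO LPS, in 16.8% of the 161 that were lower by over 16-fold, and in 2.15% of the 885 of genes that were higher. The kappaB motif occurred in 3.20%, 7.45% and 1.47% of the same groups, against 1.56% of all. The AP-1 motif was found in 8.31%, 17.4% and 5.20%, against 5.00% of all, and the TATA box in 107 of 1095, 37 of 161 and 55 of 885, against 567 of 7954. The E-box went the other way, with 8.86%, 7.45% and 12.5%, against 10.2% of all. These shares describe letters in a window of 300 bases, were not tested, and do not show binding.

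The 12 largest rises were of mixed function and lower level, and they were uneven within labelled KO LPS. Retnlg, a resistin-like protein of granulocytes, had 4.54, 52.2 and 51.7 CPM in labelled KO LPS and 0.465, 0.0477 and 0.0608 CPM in WT LPS (log2 fold 7.06 ± 1.17). Lpin1, a phosphatidate phosphatase of lipid synthesis, had 8.58, 66.4 and 54.0 CPM against 0.597, 1.81 and 0.122 CPM in WT LPS (5.19 ± 0.92). St6gal1, which adds sialic acid to glycoproteins, had 13.8, 99.2 and 111 CPM against 1.73, 1.91 and 0.851 CPM in WT LPS (5.13 ± 0.79). In all 3, labelled KO LPS 1 was the lowest of its group. That it lay above every WT LPS library was a condition of the choice. Even levels were seen in Amz1, a metallopeptidase, with 34.2, 33.6 and 28.3 CPM in labelled KO LPS and 1.66, 1.38 and 0.365 CPM in WT LPS (4.31 ± 0.50). B3gnt7, a glycosyltransferase, had 3.09, 6.93 and 5.09 CPM in labelled KO LPS and 0.0664, 0.0477 and 0.365 CPM in WT LPS (4.43 ± 0.76). Slco2b1, an organic anion transporter, had 22.1, 54.8 and 56.0 CPM in labelled KO LPS and 0.796, 1.05 and 2.80 CPM in WT LPS (4.30 ± 0.56). The lysosomal cation channel Mcoln3 had 5.43, 30.5 and 17.3 CPM in labelled KO LPS and 0.465, 0.763 and 0.122 CPM in WT LPS (4.78 ± 1.12). These 7 calls held with any 1 library left out. The other 5 did not. The calls of Nat8l, an acetyltransferase (5.40 ± 1.28), and Lrrc14b (5.35 ± 1.39) both ended without WT LPS 3, and that of Lrrc14b also without WT LPS 1. Those of Sorbs3, the adaptor vinexin (4.47 ± 1.25), and Lpar5, a lysophosphatidic acid receptor (4.44 ± 1.30), ended without any of labelled KO LPS 2 and 3 and WT LPS 1 and 3. The immunoglobulin segment Igkv5-43 had 1.33, 0.873 and 39.0 CPM in labelled KO LPS and 0.265, 0.620 and 0.608 CPM in WT LPS, so its fold rests on labelled KO LPS 3 and its call ended without that library or without any WT LPS library, and reads of such segments may be shared between near-identical copies. Adjusted p of the 12 lay between 0.00020 for Amz1 and 0.032 for Igkv5-43 (edgeR quasi-likelihood test, Benjamini-Hochberg adjustment).

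By amount of RNA, the largest loss was that of Saa3, an acute-phase apolipoprotein, with 741, 20.9 and 80.3 CPM in labelled KO LPS and 14403, 9945 and 13811 CPM in WT LPS. Rsad2, the antiviral enzyme viperin, followed with 145, 104 and 135 CPM in labelled KO LPS and 7789, 6921 and 8627 CPM in WT LPS. Il1rn, the secreted antagonist of interleukin 1, had 353, 67.0 and 55.0 CPM in labelled KO LPS and 4974, 5719 and 8739 CPM in WT LPS. For these abundant transcripts WT LPS 2 was close to the other WT libraries, unlike for Il6 or Il1a. The chemokine Ccl5 (−7.61 ± 0.55), the itaconate-making enzyme Acod1 (−6.71 ± 0.70), the guanylate-binding protein Gbp2 (−5.22 ± 0.44), Ifit2 (−5.21 ± 0.38) and the MHC class I light chain B2m (−1.49 ± 0.28) completed the 8.

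The 8 largest gains were in a different class of genes. Psap, the precursor of the saposins that help digest sphingolipids in lysosomes, had 11685, 26881 and 24230.0 CPM in labelled KO LPS and 6155, 7177 and 5672 CPM in WT LPS. Csf1r, the receptor for macrophage colony-stimulating factor, had 1955, 3843 and 4246 CPM in labelled KO LPS and 1009, 1393 and 852 CPM in WT LPS. Lipa, the lysosomal acid lipase, had 1277, 2042 and 1550.0 CPM in labelled KO LPS and 375, 298 and 202 CPM in WT LPS. In each, labelled KO LPS 1 was the lowest of its group and lay above the WT libraries. The others were the translation factor Eef2 (log2 fold 1.52 ± 0.34), the lysosomal membrane protein Laptm5 (1.32 ± 0.35), the lysosomal enzymes Man2b1 (1.29 ± 0.37) and Hexa (1.26 ± 0.38) and the mitochondrial carrier Ucp2 (1.12 ± 0.34). Only Lipa and Eef2 of these 8 kept their call with every single library left out, and the other 6 each lost it without labelled KO LPS 2 or 3 or WT LPS 3, among other libraries.

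**Figure D3:**
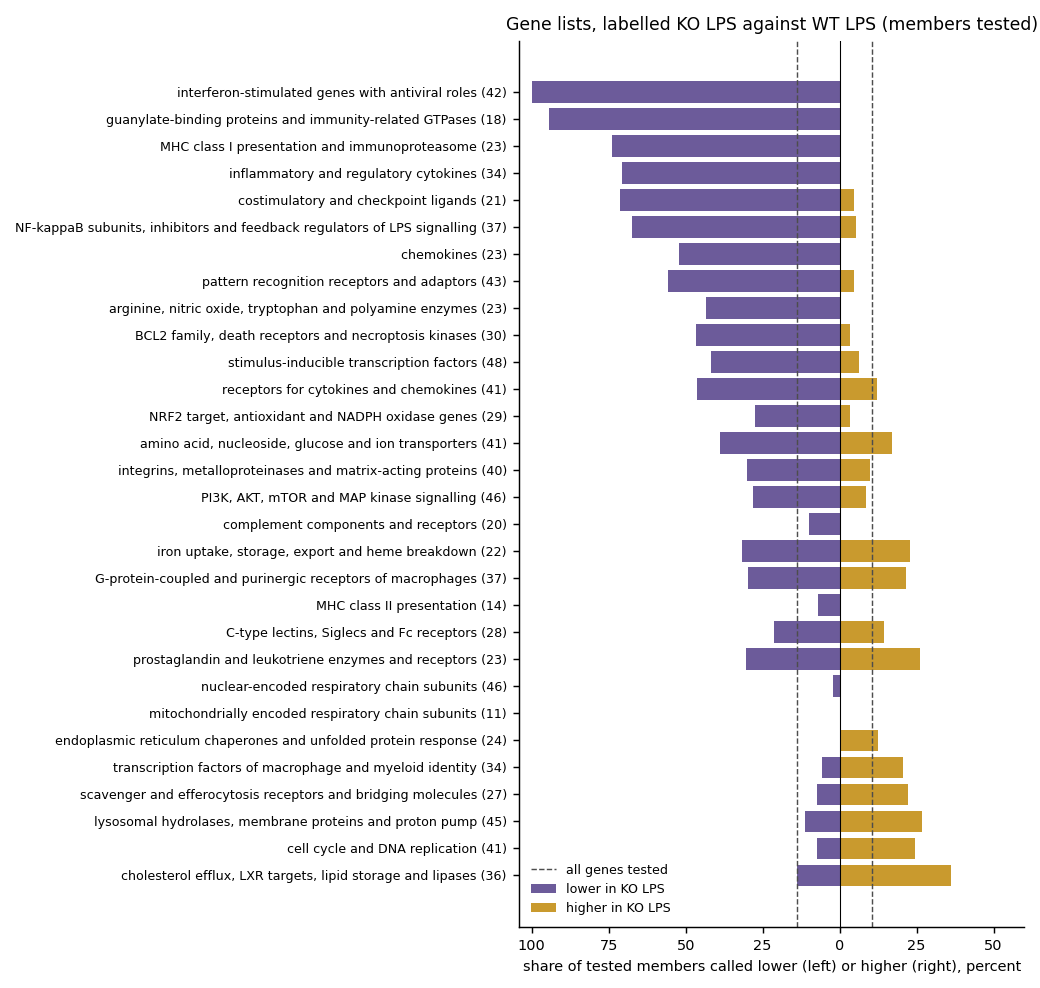
Share of the tested members of 30 gene lists that were called lower (left) or higher (right) in labelled KO LPS than in WT LPS, with the number tested in brackets; dashed lines mark the shares over all genes, 13.7% lower and 10.4% higher. Interferon-stimulated genes (42 of 42 lower) stand at one end and cholesterol efflux and lipid genes (13 of 36 higher, 5 lower) at the other.

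Sensors and their adaptors were mostly lower. Of 43 pattern recognition receptors and adaptors, 24 were lower and 2 higher, with a median log2 fold of −1.48. Tlr3, which senses double-stranded RNA in endosomes, had 7.51, 8.57 and 8.64 CPM in labelled KO LPS and 96.0, 144 and 138 CPM in WT LPS (−4.43 ± 0.44). The cytosolic RNA sensor Ifih1 had 69.9, 52.3 and 53.8 CPM against 801, 569 and 743 CPM in WT LPS (−4.13 ± 0.35). The 2 higher ones were the flagellin receptor Tlr5, at 1.14, 1.36 and 3.82 CPM against 0, 0.239 and 0 CPM in WT LPS, and the kinase Irak1 (0.77 ± 0.25). Both of these calls ended without any 1 of labelled KO LPS 3, WT LPS 1 and WT LPS 3, and that of Irak1 without labelled KO LPS 2, while 4 members were higher without labelled KO LPS 1 or WT LPS 2. Of 41 receptors for cytokines and chemokines, 19 were lower and 5 higher, and by library total 9 and 6. They were 10 and 2 without labelled KO LPS 2, 12 and 2 without WT LPS 3, 16 and 2 without labelled KO LPS 3, and 15 and 2 without WT LPS 1. Il15ra, which presents interleukin 15, had 4.42, 6.60 and 6.47 CPM in labelled KO LPS and 108, 111 and 152 CPM in WT LPS (−4.93 ± 0.38). Cxcr4, a chemokine receptor that holds cells in the marrow, had 107, 220.1 and 214 CPM in labelled KO LPS and 12.4, 20.7 and 10.2 CPM in WT LPS (3.17 ± 0.59). Ifngr1, a subunit of the interferon gamma receptor, was higher as well (1.64 ± 0.37).

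Feedback genes of LPS signalling were mostly lower. Among 37 NF-kappaB subunits, inhibitors and feedback regulators, 25 were lower and 2 higher (median −1.90). Socs3, which blocks cytokine receptor signalling, had 23.9, 19.9 and 26.7 CPM in labelled KO LPS and 1057, 326 and 1429 CPM in WT LPS (−5.90 ± 0.59). Its relative Socs1 had 1.89, 2.62 and 1.96 CPM against 113, 36.5 and 58.4 CPM in WT LPS (−5.59 ± 0.58). The phosphatase Dusp3 went the other way, with 211, 209 and 204 CPM in labelled KO LPS and 42.9, 67.7 and 28.9 CPM in WT LPS (1.69 ± 0.28). Its 3 labelled KO LPS levels differed by less than those of WT LPS. The RNA-binding protein Zfp36l2 was also higher (1.66 ± 0.42), a call that ended without labelled KO LPS 2, WT LPS 1 or WT LPS 3.

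Inducible transcription factors were mostly lower when called, and lineage factors mostly higher. Of 48 stimulus-inducible factors, 20 were lower and 3 higher, by library total 16 and 8, and with 1 higher without labelled KO LPS 2 or WT LPS 3. Batf2, an interferon-induced factor, had 7.32, 9.71 and 11.0 CPM in labelled KO LPS and 181, 66.2 and 148 CPM in WT LPS (−4.40 ± 0.45), while Atf5 had 29.0, 45.6 and 39.0 CPM against 8.29, 12.1 and 9.49 CPM in WT LPS (1.43 ± 0.27). Of 34 factors of macrophage and myeloid identity, 7 were higher and 2 lower, and 4 and 1 without labelled KO LPS 2 or 3 or WT LPS 3. Pparg, the lipid-sensing nuclear receptor, had 61.2, 61.5 and 49.6 CPM in labelled KO LPS and 4.38, 8.83 and 4.13 CPM in WT LPS (2.85 ± 0.30). Cebpa, a myeloid lineage factor, had 196, 216 and 185 CPM against 22.96, 25.9 and 11.1 CPM in WT LPS (2.82 ± 0.35). The other 5 higher ones were Bach2 (3.03), the lysosome regulator Tfeb (1.86), Mef2c (1.63), Foxo1 (1.16) and Runx2 (0.89) on the log2 scale, of which Mef2c, Foxo1 and Runx2 lost their call without labelled KO LPS 2 or 3 or WT LPS 3, among others. The master regulator Spi1 was lower, at 519, 425 and 438 CPM in labelled KO LPS and 655, 549 and 675 CPM in WT LPS (−0.98 ± 0.29), as was Mitf (−1.33 ± 0.29). By library total neither Spi1 nor Mitf passed, and that of Spi1 also ended without labelled KO LPS 2 or 3 or WT LPS 1 or 3.

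Secreted signals were lower without exception among those called: 24 of 34 cytokines (median −3.54) and 12 of 23 chemokines (median −3.61). Il15, which sustains NK and T cells, had 20.007, 19.9 and 23.4 CPM in labelled KO LPS and 220.2, 128 and 164 CPM in WT LPS (−3.57 ± 0.31). Il18, released after inflammasome cleavage, had 9.47, 5.95 and 7.85 CPM against 45.5, 49.8 and 88.5 CPM in WT LPS (−3.51 ± 0.36). By library total 2 cytokines were higher and 22 lower. The monocyte attractants Ccl2 and Ccl7 were not called. Ccl2 had 284, 5.24 and 4.35 CPM in labelled KO LPS and 347, 585 and 349 CPM in WT LPS, and Ccl7 had 298, 2.02 and 1.38 CPM in labelled KO LPS and 376, 718 and 754 CPM in WT LPS. Labelled KO LPS 1 was close to WT LPS for both genes, and both passed when that library was left out.

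Among the lists, chosen with earlier results of these data known, the interferon arm gave the most complete pattern. All 42 interferon-stimulated genes tested were lower (median −2.97), and their summed level was 6701, 4719 and 6771 CPM in labelled KO LPS and 49670, 45850 and 52300 CPM in WT LPS. Phf11b had 56.2, 36.9 and 52.9 CPM in labelled KO LPS and 624, 662 and 739 CPM in WT LPS (−4.31 ± 0.34). Of 18 guanylate-binding proteins and immunity-related GTPases, which attack the vacuoles of intracellular microbes, 17 were lower (median −4.34), led by Gbp3 (−5.66 ± 0.46) and Gbp7 (−4.56 ± 0.37). Of 23 genes of MHC class I presentation and the immunoproteasome, 17 were lower (median −1.81), such as the peptide transporter subunit Tap2, at 72.8, 83.5 and 125 CPM in labelled KO LPS and 349, 259 and 314 CPM in WT LPS. MHC class II presentation did not share this: 1 of 14 was lower, the ubiquitin ligase March1, which removes class II from the surface (−3.20 ± 0.37), with a median of 0.08. By library total 5 of those 14 were higher, and without labelled KO LPS 1 or WT LPS 1, 3 or 1.

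Costimulatory ligands were mostly lower, and other surface proteins changed in both directions. Of 21 costimulatory and checkpoint ligands 15 were lower, and Vsir, which restrains T cells, was higher (1.84 ± 0.58), a call that ended without labelled KO LPS 2 or 3 or WT LPS 1 or 3. Cd69, an early activation antigen, had 3.91, 3.33 and 2.17 CPM in labelled KO LPS and 606, 173 and 416 CPM in WT LPS (−7.58 ± 0.63). Cd274, the ligand PD-L1, had 116, 115 and 125 CPM in labelled KO LPS and 1123, 1963 and 1772 CPM in WT LPS (−4.26 ± 0.39). Of 28 C-type lectins, Siglecs and Fc receptors, 6 were lower and 4 higher. They were 7 and 7 without labelled KO LPS 1, 4 and 1 without labelled KO LPS 2, 4 and 2 without labelled KO LPS 3, and 6 and 2 without WT LPS 1. Clec4e, a receptor for microbial glycolipid, had 125, 41.7 and 54.3 CPM in labelled KO LPS and 1822, 702 and 2177 CPM in WT LPS (−4.98 ± 0.58). Of 37 G-protein-coupled and purinergic receptors, 11 were lower and 8 higher, and 10 and 5 without WT LPS 3. The formyl peptide receptors Fpr2 (−5.03 ± 0.40) and Fpr1 (−4.76 ± 0.40), which guide phagocytes to bacteria, were lower. Gpr183, an oxysterol receptor, had 27.5, 17.1 and 19.1 CPM in labelled KO LPS and 1.39, 3.39 and 2.80 CPM in WT LPS (2.59 ± 0.46). Of 40 integrins and matrix-acting proteins, 12 were lower and 4 higher, with 2 higher without labelled KO LPS 2 or 3 or WT LPS 1 and 1 without WT LPS 3. The plasminogen activator inhibitor Serpinb2 (−5.76 ± 0.72) and the proteoglycan Sdc4 (−4.52 ± 0.67) were lower, and the integrin subunit Itgb5 (1.35 ± 0.27) was higher.

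Of 27 scavenger and efferocytosis receptors, 6 were higher and 2 lower, 3 and 2 without labelled KO LPS 2, and 7 and 5 without labelled KO LPS 1. Cd300a, an inhibitory receptor for phosphatidylserine, had 162, 619 and 569 CPM in labelled KO LPS and 37.1, 48.8 and 27.7 CPM in WT LPS (3.07 ± 0.44). The high-density lipoprotein receptor Scarb1 had 84.6, 136 and 129 CPM against 24.9, 36.6 and 16.7 CPM in WT LPS (1.67 ± 0.30). Scarf1 (−1.81 ± 0.26) and the oxidized lipoprotein receptor Olr1 (−3.84 ± 0.83) were lower. Without both labelled KO LPS 1 and WT LPS 2, 6 were higher and 6 lower. Of 20 complement genes 2 were lower, Cfb (−5.02 ± 0.85) and C1ra (−2.63 ± 0.36), and 4 without labelled KO LPS 1.

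With all libraries, lipid and lysosomal genes held the largest shares of rises among the 30 pathway lists. The lysosomal share (26.7%) was close to that of prostaglandin and leukotriene genes (26.1%). Without labelled KO LPS 2 or 3 or WT LPS 3, prostaglandin and leukotriene genes (4 or 5 of 23 higher) had a larger share than lysosomal genes. Of 36 genes of cholesterol efflux and lipid storage, 13 were higher and 5 lower (median 0.75), and 9 and 3 without labelled KO LPS 2 or 3 or WT LPS 3. Fasn, the fatty acid synthase, had 70.4, 90.97 and 96.4 CPM in labelled KO LPS and 5.64, 7.01 and 4.99 CPM in WT LPS (3.37 ± 0.26), and no library of either group came near the other. Fads1, a fatty acid desaturase, had 71.9, 117 and 126 CPM against 9.09, 24.6 and 4.13 CPM in WT LPS (2.63 ± 0.47). The acyl-CoA ligase Acsl1 was lower, at 34.9, 58.9 and 59.7 CPM in labelled KO LPS and 517, 339 and 557 CPM in WT LPS (−3.76 ± 0.39). Of 45 lysosomal genes, 12 were higher and 5 lower (median 0.45), and by library total 26 and 2. The proton pump subunit Atp6v0a1 had 403, 467 and 394 CPM in labelled KO LPS and 64.7, 84.8 and 25.7 CPM in WT LPS (2.37 ± 0.39). The protease Ctsc, which activates granule enzymes, had 365, 429 and 576 CPM against 1275, 2954 and 2432 CPM in WT LPS (−2.76 ± 0.41). With labelled KO LPS 2, labelled KO LPS 3 or WT LPS 3 left out, 4 lysosomal genes were higher and 3 lower, without WT LPS 2, 6 and 5, and without WT LPS 1, 11 and 3.

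Of 23 prostaglandin and leukotriene genes, 7 were lower and 6 higher, and 4 and 5 without labelled KO LPS 2 or 3. Ptges, which makes prostaglandin E2, had 12.6, 5.18 and 4.93 CPM in labelled KO LPS and 318, 262 and 609 CPM in WT LPS (−6.25 ± 0.56), and the inducible cyclooxygenase Ptgs2 was lower too (−5.60). Of the genes that make leukotrienes, Alox5ap, at 348, 272 and 359 CPM in labelled KO LPS and 93.9, 104 and 69.6 CPM in WT LPS (1.37 ± 0.27), and Lta4h (1.31 ± 0.25) were higher, as was the constitutive cyclooxygenase Ptgs1 (2.38). Of 23 genes of arginine, nitric oxide, tryptophan and polyamine metabolism 10 were lower and none higher, and by library total 9 and 3. Arg1, arginase, was not called, with 151, 0.655 and 4.98 CPM in labelled KO LPS and 47.2, 242 and 135 CPM in WT LPS.

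Of 22 genes of iron and heme, 7 were lower and 5 higher. They were 4 and 1 without labelled KO LPS 2, 6 and 1 without WT LPS 1, 3 and 2 without labelled KO LPS 3 or WT LPS 3, and 11 and 4 without both labelled KO LPS 1 and WT LPS 2. Lcn2, which binds bacterial iron carriers, had 117, 293 and 334 CPM in labelled KO LPS and 681, 709 and 1732 CPM in WT LPS (−2.62 ± 0.50). Aco1, the iron regulatory protein, had 62.0, 92.7 and 80.5 CPM against 20.5, 27.4 and 11.7 CPM in WT LPS (1.49 ± 0.29). Of 29 antioxidant and NADPH oxidase genes, 8 were lower and 1 higher, and by library total 4 and 5, so the balance of that list turned with the scaling. Without labelled KO LPS 2 or WT LPS 1 4 were lower, without labelled KO LPS 3 or WT LPS 3 5, and without both labelled KO LPS 1 and WT LPS 2 15 were lower and 2 higher. Sod2, mitochondrial superoxide dismutase, had 203, 87.8 and 105 CPM in labelled KO LPS and 2031, 1208 and 2542 CPM in WT LPS (−4.42 ± 0.51). Of 41 solute carriers, 16 were lower and 7 higher, by library total 14 and 14, without labelled KO LPS 2 14 and 4, and without WT LPS 3 14 and 3. The nucleoside transporter Slc28a2 had 20.6, 20.4 and 31.5 CPM in labelled KO LPS and 1287, 706 and 1755 CPM in WT LPS (−6.26 ± 0.48), and the folate transporter relative Slc46a3 had 20.4, 94.3 and 87.7 CPM against 2.39, 4.63 and 0.973 CPM in WT LPS (4.19 ± 0.67).

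Signalling kinases and survival genes were more often lower. Of 46 genes of PI3K, AKT, mTOR and MAP kinase signalling, 13 were lower and 4 higher, by library total 7 and 7, without labelled KO LPS 2 or WT LPS 3 8 and 3, and without WT LPS 2 12 and 7. The cytokine receptor kinase Jak2 had 40.1, 41.9 and 34.985 CPM in labelled KO LPS and 455, 297 and 659 CPM in WT LPS (−4.15 ± 0.40). Deptor, an inhibitor of mTOR, had 8.46, 19.3 and 16.3 CPM in labelled KO LPS and 0.929, 1.24 and 0.547 CPM in WT LPS (3.51 ± 0.48). Of 30 genes of the BCL2 family, death receptors and necroptosis, 14 were lower and 1 higher. Cflar, which blocks caspase 8, had 99.97, 92.8 and 94.5 CPM in labelled KO LPS and 596, 588 and 733 CPM in WT LPS (−3.26 ± 0.33). The higher one, Bbc3, a promoter of apoptosis (0.92 ± 0.30), lost its call without labelled KO LPS 2 or 3 or any WT LPS library.

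Cell cycle genes were more often higher than lower, and few genes of protein folding or respiration were called. Of 41 cell cycle and replication genes, 10 were higher and 3 lower (median 0.61), and by library total 20 and 2. The helicase subunit Mcm7 had 47.5, 28.8 and 49.9 CPM in labelled KO LPS and 5.91, 10.3 and 8.27 CPM in WT LPS (1.88 ± 0.39). Ccnd2, a D-type cyclin, had 6.82, 14.6 and 24.5 CPM against 125, 84.2 and 141 CPM in WT LPS (−3.49 ± 0.46). Of 24 endoplasmic reticulum chaperones and stress genes 3 were higher, Eif2ak3 (2.15), Herpud1 (1.85) and Hyou1 (0.97), and by library total 8. The Eif2ak3 and Hyou1 calls ended without labelled KO LPS 2 or 3 or WT LPS 1 or 3, and that of Herpud1 without labelled KO LPS 2, when no member of the list was called. Of 46 nuclear-encoded respiratory chain genes 1 was lower, the electron carrier Cycs (−2.14 ± 0.56), and by library total 9 were higher. The Cycs call ended without labelled KO LPS 2 or 3 or WT LPS 1 or 3. Of 11 mitochondrially encoded subunits 0 were called by edgeR, 0 by DESeq2 and 0 at an unadjusted p under 0.05. In all, 437 of 930 list members were called, 102 higher and 335 lower, against 24.1% of all genes. The lists were chosen with earlier results of these data known, so this excess was partly fixed by the choice.

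Some called genes lay side by side. Among tested protein-coding genes in chromosomal order, 35 runs of at least 4 neighbours were all lower, covering 179 genes, and 13 runs were all higher, covering 54. The longest, 15 genes on chromosome 1 (173350879 to 174921819), held Aim2, an inflammasome sensor of DNA, and mostly its relatives of the interferon-inducible Ifi family, with a median log2 fold of −3.74. The next were 8 Trim genes around Trim30a on chromosome 7 (104244457 to 104507849, median −2.55), 7 Schlafen genes on chromosome 11 (82951349 to 83215154, median −3.69) and 7 genes around Phf11b on chromosome 14 (59244441 to 59585764, median −4.25). The Ifit cluster on chromosome 19 (34550694 to 34650009) had 6 genes and a median of −4.67. A run on chromosome 16 (91014037 to 91597800) held the interferon and interleukin 10 receptor subunits Ifnar1, Ifnar2, Ifngr2 and Il10rb, with a median of −1.18. In that run the calls of Ifnar2, Ifngr2 and Il10rb ended by library total, and that of Il10rb also with any 1 library left out. The longest runs of higher genes had 5 members, and one of 4 on chromosome 11 (70092644 to 70221064) held the galactose-binding lectins Asgr2, Mgl2 and Clec10a, with a median of 3.20. The calls of these 3 lectins each ended without labelled KO LPS 2 or 3 or WT LPS 2, among others. Members of the Ifi, Trim30, Schlafen, Phf11 and Ifit clusters are close paralogs, so reads may be divided between copies, and the values of single members are uncertain.

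Some called genes were microRNA hosts. Of 477 tested genes that carried a microRNA hairpin of the RefSeq table on their own strand, 27.7% were called, 65 lower and 67 higher, against 24.1% of all genes. The hosts named next were chosen after their values were seen. Mir155hg, host of the inflammatory miR-155, had 0.252, 0.273 and 0.212 CPM in labelled KO LPS and 19.97, 16.3 and 63.5 CPM in WT LPS (−7.59 ± 0.97). AA467197, which holds Mir147, had 13.7, 4.20 and 4.13 CPM against 869, 255 and 1094 CPM in WT LPS (−7.23 ± 1.24). The mannose receptor gene Mrc1, which holds Mir511, had 295, 440.0 and 421 CPM in labelled KO LPS and 62.9, 96.8 and 119.8 CPM in WT LPS (1.54 ± 0.45). Srebf2, a sterol regulator that holds Mir33, had 112, 128 and 145 CPM against 59.4, 38.2 and 25.4 CPM in WT LPS (1.10 ± 0.34). The Mrc1 call ended without any 1 of labelled KO LPS 2 and 3 and WT LPS 1 and 2. The Srebf2 call ended without labelled KO LPS 2 or 3 or WT LPS 2 or 3. The mature sequences below (RefSeq, GRCm38.p6) give 1 arm of the hairpin in each of these hosts, with the seed, bases 2 to 8, in capitals. For Mir155 and Mir33 the other arm, miR-155-3p and miR-33-3p, was also listed and is not printed. The arm shown need not be the more abundant one. No 2 of the 4 share a seed, and mature microRNAs were not measured here.
miR-155-5p: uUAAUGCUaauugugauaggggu
miR-147-5p: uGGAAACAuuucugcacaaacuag
miR-511-3p: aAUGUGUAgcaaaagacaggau
miR-33-5p: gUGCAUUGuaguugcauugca

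A few genes were measured well enough to bound a difference. In 30 genes the 95% interval of the log2 fold lay within −0.5 and 0.5. The most abundant was Plec, a cytoskeletal linker, with 302, 278 and 276 CPM in labelled KO LPS and 188, 214 and 211 CPM in WT LPS and a log2 fold of −0.03 ± 0.21. Next were Nptn, an adhesion molecule (−0.02 ± 0.22), Tmem59 (−0.02 ± 0.22), the oligosaccharyltransferase subunit Stt3a (−0.04 ± 0.21), Tm9sf2 (−0.02 ± 0.22) and the transport receptor Tmed2 (−0.02 ± 0.21). These values rest on TMM scaling: in CPM, which are scaled by library total alone, 5 of these 6 were higher in labelled KO LPS with no overlap, all but Tm9sf2.

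Within groups, spread was carried mainly by labelled KO LPS 1 and WT LPS 2. Among the 1435 higher genes, labelled KO LPS 1 was the lowest library of its group in 72.9% and WT LPS 2 the highest of its group in 72.2%, against 46.7% and 51.3% of all tested genes. Among the 1889 lower genes, WT LPS 2 was the lowest WT library in 46.5%, WT LPS 1 in 44.3% and WT LPS 3 in 9.21%. Over all tested genes these shares were 27.1%, 43.7% and 29.2%, so that of WT LPS 1 was near its share of all genes. These orders are of CPM, without the TMM factors, which were 0.765, 1.0159 and 0.8185 for WT LPS 1 to 3. Metallothionein Mt2 had 36.7, 1.96 and 3.07 CPM in labelled KO LPS and 578, 12.7 and 198 CPM in WT LPS and was not called (−4.87 ± 1.71). Ptx3, a secreted pattern recognition molecule, had 3.47, 0.491 and 0.954 CPM in labelled KO LPS and 113, 3.29 and 90.2 CPM in WT LPS, with WT LPS 2 below labelled KO LPS 1, and was called with a log2 fold of −6.03 ± 1.26. The glycolytic enzyme Ldha had 1605, 499 and 572 CPM in labelled KO LPS and 1520.2, 1404 and 1228 CPM in WT LPS. It was not called with all libraries and passed without labelled KO LPS 1.

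Transcripts of other cell types were present in every library and differed between libraries of a group. The summed level of 16 neutrophil markers was 1473, 6814 and 8326 CPM in labelled KO LPS and 1941, 2977 and 7194 CPM in WT LPS, with 5 higher and 1 lower of 15 tested, 1 and 1 without labelled KO LPS 3 or WT LPS 1, 2 and 1 without WT LPS 2, and 3 and 1 without labelled KO LPS 2. Retnlg and Lcn2, described above, are on that list. Elane, a granule protease, had 6.37, 74.2 and 161 CPM in labelled KO LPS and 1.73, 3.72 and 6.99 CPM in WT LPS (3.76 ± 0.94), a call that ended without labelled KO LPS 3 or WT LPS 1. B lineage markers summed to 13.8, 92.7 and 95.9 CPM in labelled KO LPS and 13.2, 5.53 and 7.78 CPM in WT LPS, with 2 of 7 higher, the antigen receptor subunits Cd79b (2.97 ± 0.66) and Cd79a (2.55 ± 0.81), the second of which lost its call without labelled KO LPS 2 or 3 or WT LPS 2 or 3. Without labelled KO LPS 1, 5 of the 7 were higher. Mast cell and basophil markers summed to 10.5, 155 and 332 CPM in labelled KO LPS and 12.3, 35.3 and 18.9 CPM in WT LPS, with 0 of 7 called by edgeR, 3 by DESeq2, 3 at an unadjusted p under 0.05 and 4 by edgeR without labelled KO LPS 1, or 5 without WT LPS 2 as well. T and NK cell markers summed to 12.7, 164 and 225 CPM against 4.91, 26.0 and 43.2 CPM in WT LPS, with 0 of 9 called by edgeR, 0 by DESeq2 and 0 at an unadjusted p under 0.05. In all 4 sums labelled KO LPS 2 and 3 were above labelled KO LPS 1, which lay within or below the range of WT LPS for neutrophils, mast cells and T and NK cells and slightly above it for B lineage cells. Stromal markers summed to 159, 60.9 and 95.6 CPM in labelled KO LPS and 66.8, 303 and 508 CPM in WT LPS, with 4 of 14 lower, 8 without WT LPS 1, 7 without labelled KO LPS 1 and 2 without any 1 of the other libraries. Erythroid and platelet markers summed to 787, 535 and 752 CPM in labelled KO LPS and 146, 244 and 492 CPM in WT LPS, with 3 of 7 higher, 0 without labelled KO LPS 2 or 3 or WT LPS 1 or 2, and 1 without WT LPS 3. Dendritic cell markers summed to 310.3, 334 and 496 CPM in labelled KO LPS and 766, 1029 and 752 CPM in WT LPS, with 2 of 8 higher and 1 lower. The lower one, Bst2, is also interferon-stimulated and made up most of the sum, at 299, 283 and 438 CPM in labelled KO LPS and 751, 1009 and 721 CPM in WT LPS. The higher ones were Flt3 (2.93 ± 0.92), a growth factor receptor of their precursors, and the plasmacytoid lectin Siglech (2.07 ± 0.59), and 0 were called higher by edgeR without labelled KO LPS 2 or 3 or any WT LPS library. Of the listed markers, 1 erythroid or platelet gene was at 0 in all 3 WT LPS libraries and no other was at 0 throughout a group. In bulk RNA, fewer cells of a type and less RNA per cell cannot be told apart, and the part of these cells in the results above was not tested. The macrophage markers themselves were abundant in every library, summing to 26290, 41260 and 31640 CPM in labelled KO LPS and 21480, 21120 and 16580 CPM in WT LPS.

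**Figure D4:**
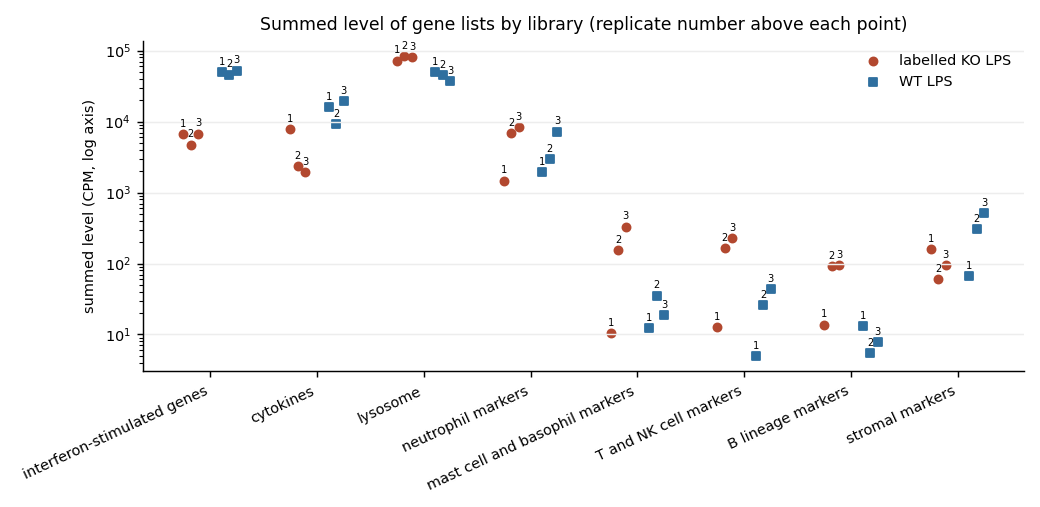
Summed level in CPM (log axis) of 8 gene lists in each labelled KO LPS library (circles, left) and WT LPS library (squares, right), with replicate numbers above the points. Interferon-stimulated genes separate the groups (4719 to 6771 against 45850 to 52300 CPM), while neutrophil markers range from 1473 to 8326 CPM within labelled KO LPS alone.

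The same genotype labels were set against each other in medium, in 6 other libraries, and gave nearly the opposite picture. There 3620 genes were called (26.3%), 1932 higher in labelled KO medium than in WT medium (14.0%) and 1688 lower (12.3%). Of the 1889 genes lower in labelled KO LPS, 1427 were higher in labelled KO medium, which is 75.5% of the LPS list and 73.9% of the medium list, and 0 were lower in both. Of the 1435 genes higher in labelled KO LPS, 879 were lower in labelled KO medium (61.3% and 52.1% of the lists) and 2 were higher in both. Those 2, named after their values were seen, were the antibody constant region Ighg3, at 0.631, 0.709 and 11.8 CPM in labelled KO LPS and 0.133, 0.0954 and 0.122 CPM in WT LPS, and the class I gene H2-Q1, at 5.30, 8.73 and 0.583 CPM in labelled KO LPS and 0.199, 0.191 and 0.122 CPM in WT LPS. In each, 1 labelled KO LPS library differed by over an order of magnitude from another, both belong to families of near-identical copies, and the Ighg3 call ended without labelled KO LPS 3 or WT LPS 3 and the H2-Q1 call without labelled KO LPS 2 or any WT LPS library. The comparisons share no library, but whether they share mice is not given. A test of the difference itself, the labelled genotype effect in LPS minus that in medium, passed for 5657 genes (41.1%), and among the 3324 genes called under LPS for 3200 (96.3%). The remaining 124 were 65 higher and 59 lower genes. That difference contains the LPS effect by which the 3324 were called, so the share of 96.3% was partly fixed by the call. On the first principal component neither label alone, genotype or treatment, sorted the libraries. The reason cannot be told from the libraries at hand and was not tested.

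**Figure D5:**
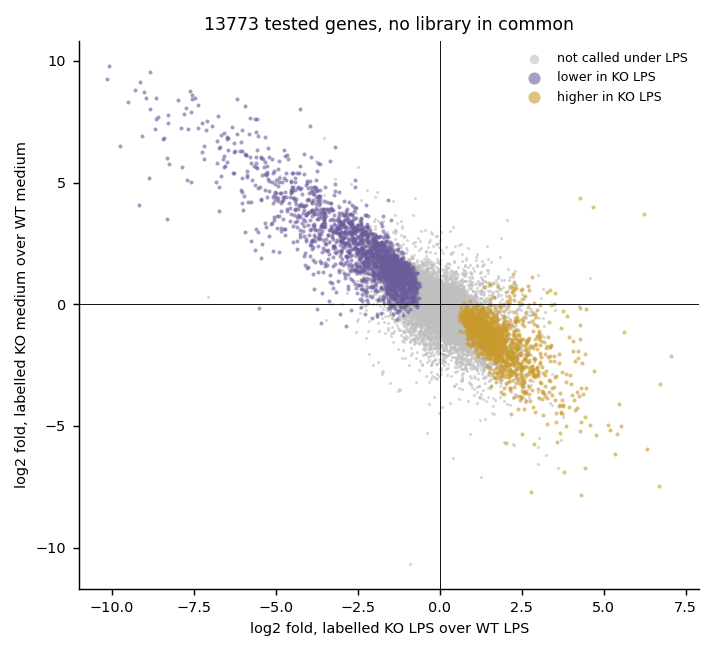
Log2 fold of labelled KO LPS over WT LPS (horizontal) and of labelled KO medium over WT medium (vertical) for the 13773 tested genes, coloured by the call under LPS. Genes lower in labelled KO LPS lie mostly in the upper left, where 1427 of 1889 were also called higher in medium, and genes higher in labelled KO LPS lie mostly in the lower right, where 879 of 1435 were called lower.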

How the data were processed

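RNA of mouse bone marrow-derived macrophages was sequenced in 12 libraries, and 6 were compared here. The authors deposited raw read counts per gene and FPKM values. FPKM, which the authors deposited in a separate table, served only as a check. In genes with many counts in every library, the ratio of FPKM to counts scaled by library total was constant between libraries to within 0.002%. Gene length was not used, and genes with few counts were not checked. The genome build was mm10, as the submitters' processing notes list it. Aligner, counter, annotation and use of strand are not named in any source used here, so reads of overlapping or antisense genes cannot be told apart. Both a TruSeq and a KAPA stranded kit are named in the labels' protocols.

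Genes were kept with filterByExpr (13773 of 54446). Counts were scaled with TMM factors and fitted with edgeR 4.0.16 (R 4.3.3) over all 12 libraries, 1 mean per group, with the quasi-likelihood test and Benjamini-Hochberg adjustment at 0.05, and changes beyond 2-fold with glmTreat. SEs come from the F statistic. CPM are counts scaled to a library total of 1000000, and 3 counts, the lowest total read as present, equal 0.143 to 0.199 CPM, a floor for counting error only. By rule, the 12 largest falls and rises were taken among called genes with a mean of at least 5 CPM in the higher group. They also had no overlap in CPM between the groups, so their calls and separation were conditions of the choice. The 8 largest losses and gains of CPM were taken among called genes. The rule also named the 2 called members of each list and direction with the smallest p. To these it added the 6 most abundant genes with a narrow interval and the 6 with most spread in each group. Gene models named Gm or Rik and pseudogenes were left out of the falls, rises, losses, gains and spread genes. Further genes were chosen after their values were seen. The members and lists were chosen with earlier results of these data known. No pair of libraries of the same group agreed within sampling noise (lowest chi-square per degree of freedom 24.3). Pairs of libraries from different groups were not checked in this way. Alternatives were RLE factors, library totals, DESeq2 1.42.0, no filter, the LPS groups alone, a replicate block, each library left out, and, chosen after seeing the data, a term for Xist and both libraries that stand apart left out. The procedure was run on simulated data with a fixed spread and few changed genes, balanced in direction. That setting differs from these data, so it does not give error rates for them.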

Additional observations from a re-analysis of the deposited data

Results flagged for a closer look

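The comparison of labelled KO with WT gave a different effect in LPS than in medium for 5657 genes (edgeR quasi-likelihood test of the difference of effects, Benjamini-Hochberg adjustment). All values here are that difference on the log2 scale, the effect in LPS minus the effect in medium, so a negative value means that labelled KO stood lower against WT in LPS than in medium. Nlrc3 itself had 4.59, with the labelled KO above WT in LPS and below WT in medium. Among the largest falls under LPS the differences were Nos2 −19.40, Il1f6 −16.26, Il23r −17.75, Il19 −17.44, Shisa3 −18.35 and U90926 −15.23, and Il1a −16.06, Csf3 −13.99, Il33 −16.35, Il6 −15.13, Fam3b −15.60 and Cxcl10 −15.77. Il1f6, Il23r, Shisa3, Il33 and Fam3b had 1 or 2 reads in all of labelled KO LPS, so the sizes of those 5 depend on the prior count of the fit. Among the largest rises they were Retnlg 9.17, Nat8l 10.73, Lrrc14b 11.51, Lpin1 10.35, St6gal1 10.09 and Mcoln3 10.16, and Sorbs3 7.89, Lpar5 11.16, B3gnt7 6.46, Amz1 9.13 and Slco2b1 7.75.

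The chemokine Ccl5 had −16.38, the itaconate enzyme Acod1 −13.15, and the cytokines Il1b −9.75, Tnf −8.65 and Il10 −11.20. The mannose receptor Mrc1 had 2.50. Genes of glucose use under hypoxia signalling had smaller differences, with Hif1a −4.58, Slc2a1 −4.56, Pfkfb3 −7.74, Hk2 −2.99 and Ldha −2.22. Of 110 further named genes called under LPS, 106 passed the same test. That test contains the LPS difference by which the genes were called, so passing it was partly fixed by the call. Of all genes called under LPS, 96.3% passed. Groups held 3 libraries each, and no single library was tested as an outlier.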

How the results depend on the processing

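Fitted on the LPS groups alone, 2185 genes were called and 622 changed by more than 2-fold, against 3324 and 1080 with all libraries. With 1 library left out at a time, which can leave an arm of 2, these counts ranged from 1810 to 4093 and from 510 to 1504. Without both labelled KO LPS 1 and WT LPS 2, chosen after seeing the data, 2033 genes changed by more than 2-fold, in a setting in which label and sex cannot be told apart. The difference between the labelled genotype effects in LPS and medium held for 4709 to 6296 genes with 1 library left out, and the medium comparison gave 2196 to 4735 genes, and 6644 by library total (16.1% of them higher). By library total the LPS comparison gave 4681 genes (74.5% higher) and the difference of effects 8135 (81.1% higher). The cause of these shifts was not tested. DESeq2 called 4369, the fit without a filter 3447, RLE factors 3327 and a term for Xist 4456 genes. Called members of the gene lists numbered 317 to 465 with 1 library left out and 437 in all. Xist reversed, with a log2 fold of 9.83, when labelled KO LPS 1 and WT LPS 2 were left out, which removes 1 library without and 1 with the transcript.

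With the replicate block the counts were 2898 genes called, 908 changed by more than 2-fold, 5285 past the difference of effects, 3164 in medium and 410 list members. Same-numbered LPS libraries had deviations with correlations of 0.383, 0.314 and 0.0897, and labelled KO LPS 3 had its highest with WT LPS 2 (0.241). The replicate numbers were therefore not read as pairs. In the submitters' sample codes WT LPS 1 and WT medium 2 share a number, as do WT LPS 2 and WT medium 3. What those numbers stand for is not stated, and no pairing by them was modelled. Among the genes named, 7 lost their call by library total, 1 with RLE factors, 5 without a filter and 29 with the LPS groups alone. The replicate block ended 13 calls and the Xist term 11. With 1 library left out the losses ranged from 3 without labelled KO LPS 1 to 41 without WT LPS 3. They were 40 without labelled KO LPS 2 and 37 without labelled KO LPS 3. Of 185 genes, 126 kept the same outcome in all settings. Genes near the floor of 0.143 to 0.199 CPM in a group are limited by depth.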

Other observations

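Outside protein-coding genes the balance of directions differed by class. Of 654 processed pseudogenes tested, 4 were higher in labelled KO LPS (0.612%, against 10.4% of all genes) and 41 lower (6.27%, against 13.7%), and their reads may come from the parent genes. Of 211 antisense transcripts 13 were higher (6.16%) and 36 lower (17.1%), and without a stated strand setting their reads cannot be told from those of the genes they overlap. Of immunoglobulin genes, 5 of 11 constant segments (45.5%) and 4 of 31 variable segments (12.9%, near the 10.4% of all genes) were higher and 0 lower in either class, beside B lineage markers that summed to 13.8, 92.7 and 95.9 CPM in labelled KO LPS and 13.2, 5.53 and 7.78 CPM in WT LPS. The part of those cells in these values was not tested.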
